A study of Homo sapiens with 12 samples.

Results

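Keratins are the intermediate filament proteins of epithelia. Each filament is built from pairs of 1 acidic type I chain and 1 basic type II chain, so that epithelial cells usually make a type I and a type II keratin together, such as KRT18 with KRT8 in simple epithelia. Other pairs mark the basal and upper layers of stratified epithelia, and a separate set of hair keratins builds the hair shaft. Ewing sarcoma is a bone and soft tissue tumour of small round cells, and keratin staining is not among its defining features. The genes followed here were those whose symbol was KRT and a number, with at most 1 letter after it. There were 55 of them among 58721 genes in the count table, 29 of type I and 26 of type II. Of these, 27 lie on chromosome 12 and 28 on chromosome 17, and the only type I gene on chromosome 12 was KRT18, next to KRT8.

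RNA-seq was carried out on EW8 and TC71, both Ewing sarcoma cell lines, in 4 groups of 3 libraries, with no count total below 42860665 or above 60853649. In both lines a lentiviral Tet-On 3G system drives c-Jun and c-Fos, the subunits of the AP-1 transcription factor, from 1 doxycycline-responsive TRE3G promoter, joined by a self-cleaving peptide. The cells were given either vehicle (DMSO) or doxycycline at 2000 ng/ml for 72 h, and the labels name the genotype WT without doxycycline and AP1_overexpression with it, although all 4 groups carry the construct. The lines were selected with 2 antibiotics, no cloning was described, and no doxycycline-treated cells without the construct were analysed here, so effects of doxycycline itself and of the 2 factors cannot be told apart. Nothing says whether the 3 libraries of a group came from separate cultures, and p-values then measure only the spread between these libraries.

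JUN and FOS checked the labels. JUN was at 19.8 to 24.6 CPM (counts scaled to the library size) in EW8 vehicle libraries and at 422 to 503.5 CPM with doxycycline, and FOS went from between 35.9 and 37.6 to between 999 and 1139 CPM. In TC71, JUN went from between 18.04 and 25.4 to between 705 and 813.5 CPM and FOS from between 11.2 and 12.1 to between 1450 and 1686 CPM. All 11 Ewing sarcoma markers, among them CD99, NKX2-2 and NR0B1, were above 6 counts in every group, and their summed level was between 2891 and 3306 CPM in all 12 libraries. None of these markers rose and 1 fell in EW8 (LIPI), and in TC71 PAPPA rose and GLI1 fell, with the same counts by DESeq2. At an unadjusted p below 0.05 and with no fold limit, 3 were higher and 6 lower in EW8, and 3 higher and 7 lower in TC71. TC71 vehicle replicate 1 stood apart from the others of its group, with a chi-square per gene of 58.9 and 56.1 against them. Other replicate pairs gave 5.24 to 10.2. Some of the values that turn on this library, but not all, are given without it below.

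Most keratins were silent in both lines. No read was counted in any library for 14 of them, namely KRT1, KRT2, KRT4, KRT24, KRT26, KRT35, KRT37, KRT40, KRT71, KRT72, KRT73, KRT74, KRT77 and KRT84. This set holds KRT1 and KRT2, both type II keratins of the upper epidermis, and all 4 type II keratins of the inner root sheath of the hair follicle. Another 15 (KRT3, KRT5, KRT6B, KRT6C, KRT9, KRT12, KRT20, KRT31, KRT33A, KRT33B, KRT36, KRT39, KRT76, KRT82 and KRT222) never exceeded 6 counts, which is the floor used here and stands for 3 read pairs, since the 2 mates of a pair were counted singly. KRT5, the basal type II keratin of stratified epithelia, thus had 2 counts in 1 library and 0 in all others.

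The number of keratins above that floor in at least 1 library was higher with doxycycline in both lines. It was 12 in EW8 vehicle and 23 in EW8 doxycycline libraries, and 6 and 14 in those of TC71. The same count over all genes at this floor is not given, so it does not set keratins apart. Genes with any count also became more numerous, from 24789 to 25390 per EW8 vehicle library to 25902 to 26785 with doxycycline. In TC71 they were 23676 to 24372 and 24429 to 24477. Only 16 of the 55 had enough reads to enter the test across 21013 genes, and 7 of these 16 were at or under the floor in both vehicle groups. A gene that enters the test only through its doxycycline libraries has to differ, so counts below are given out of all 55.

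**Figure D1:**
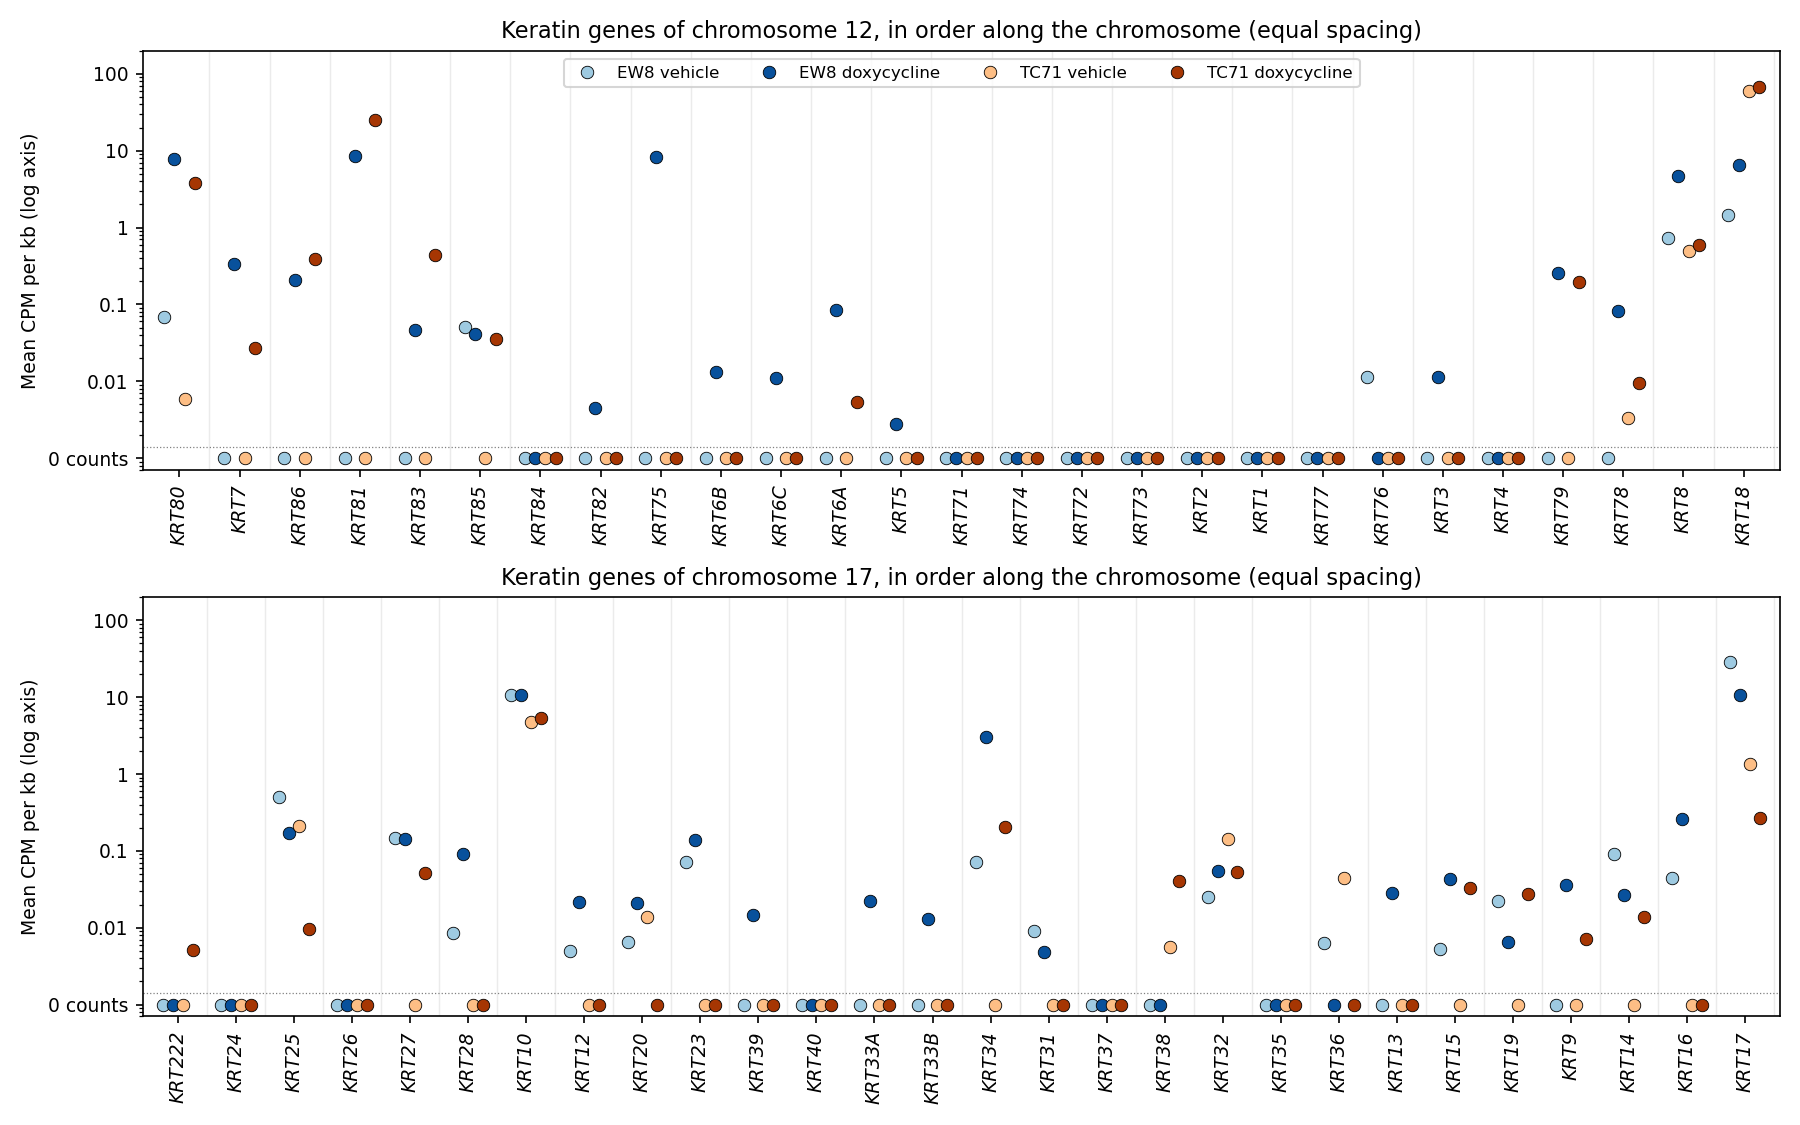
Mean level of each of the 55 keratin genes in the 4 groups, in CPM per kb of exon on a log axis, with the genes of chromosome 12 above and of chromosome 17 below in their order along the chromosome at equal spacing. Points on the lowest line had 0 counts in all 3 libraries. The doxycycline points stand above the vehicle points from KRT80 to KRT83, at KRT75 in EW8 alone, and at KRT79, while the genes from KRT71 to KRT4 stay at or near 0.

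In EW8, 11 of the 55 keratins rose with doxycycline and 1 fell, by edgeR's quasi-likelihood test. A call here means an adjusted p below 0.05 together with a log2 change of more than 1 in either direction. Over all genes tested in EW8, 11.4% rose and 3.38% fell. In TC71, 9 keratins rose and 2 fell, where 12.3% of all genes tested rose and 3.67% fell. As shares of all 55 these counts are 20% and 1.82% in EW8 and 16.4% and 3.64% in TC71. On the same base, all 58721 genes of the table whether tested or not, 4.09% rose and 1.21% fell in EW8, and 4.40% rose and 1.31% fell in TC71. The risers included 8 type II and 3 type I keratins in EW8 and 6 type II and 3 type I keratins in TC71, and no type II keratin fell in either line (0 also at an unadjusted p below 0.05 and by DESeq2). The 8 keratins called higher in both lines were KRT7, KRT15, KRT34, KRT79, KRT80, KRT81, KRT83 and KRT86, which is 72.7% of the EW8 risers and 88.9% of those in TC71. The same overlap over all genes is not given here, so these shares do not set keratins apart from other genes. For KRT7, KRT15 and KRT27 in TC71, and for KRT83 and KRT15 in EW8, the call rests on few counts. In bulk RNA, a change in the number of cells that express a keratin and a change in the amount per cell cannot be told apart.

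**Figure D2:**
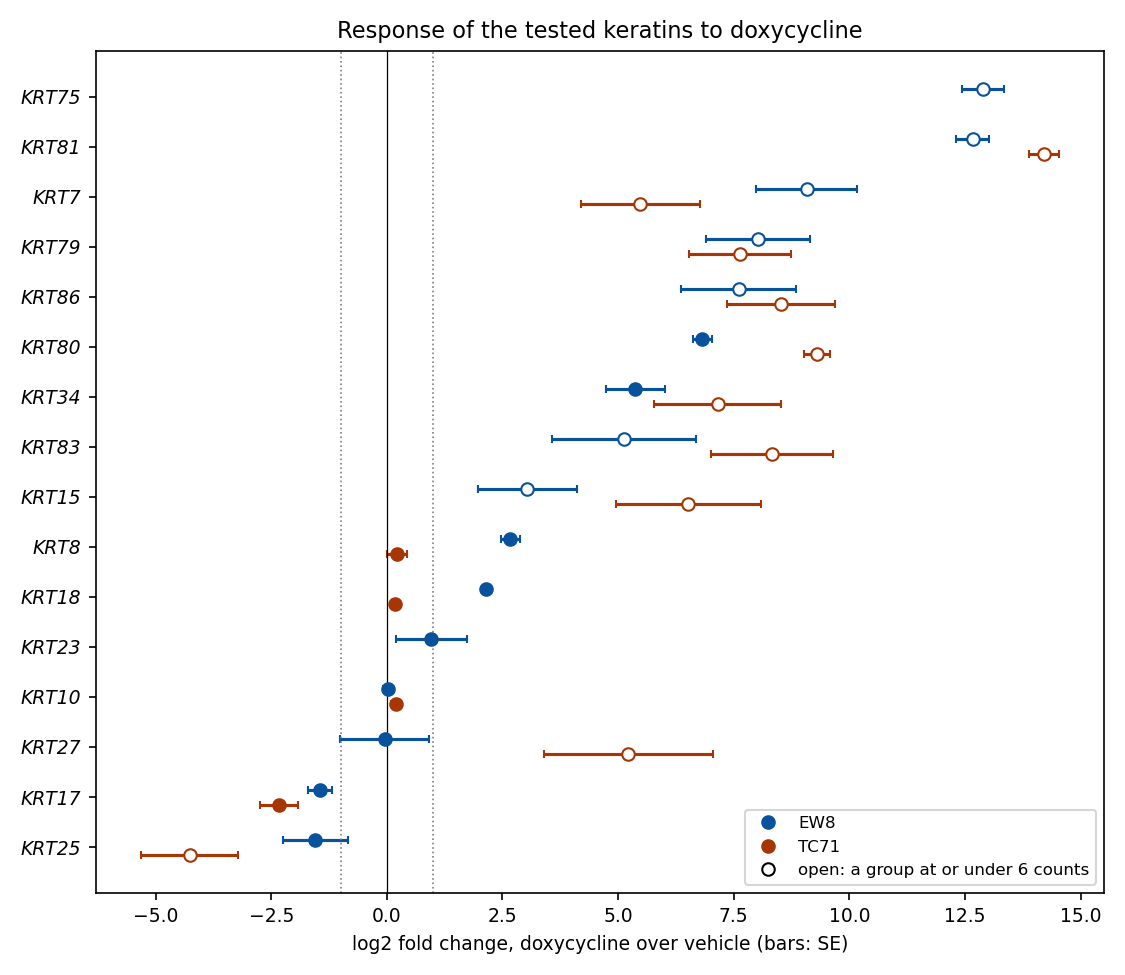
Log2 fold change of doxycycline over vehicle for the keratins that entered the test, in EW8 (blue) and TC71 (brown), with bars for the standard error and dotted lines at 1 and -1. Open points have a group at or under 6 counts in every library, and their position depends on the small prior count of the fit. KRT8 and KRT18 stand right of 2 in EW8 and near 0 in TC71, and KRT17 stands left of -1 in both.

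Several of the responding genes stand side by side at 1 end of the chromosome 12 cluster. KRT80, KRT7, KRT86, KRT81 and KRT83 follow each other there, and these 5 were called higher in both lines. KRT80, found in many epithelia late in differentiation, lies at chr12:52168996-52192000 on the minus strand in the hg38 coordinates of the count table. It was at 0.180, 0.392 and 0.323 CPM in EW8 vehicle libraries and at 35.1, 33.5 and 34.2 CPM with doxycycline. In TC71 it was at 0.0382, 0 and 0.0388 CPM, that is 2, 0 and 2 counts, and at 18.3, 16.97 and 15.1 CPM with doxycycline. The groups did not overlap in either line, and the doxycycline libraries of each line lay close together. The log2 fold change was 6.82 (SE 0.20, adjusted p = 6.41e-15, edgeR) in EW8. Counting read pairs, the ratio was 114 in EW8 with an exact 95% interval of 74.9 to 182, and 695 in TC71 with an interval of 192 to 5750, both for counting error only.

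KRT81, a type II keratin of the hair cortex (chr12:52285913-52291534, minus strand), had 0 counts in all 6 vehicle libraries. With doxycycline it was at 17.6, 15.6 and 16.7 CPM in EW8 and at 51.6, 51.4 and 41.1 CPM in TC71. Against the floor of 6 counts per library its level rose at least 123-fold in EW8 (adjusted p = 9.54e-13, edgeR) and at least 412-fold in TC71 (adjusted p = 6.87e-14, edgeR). Its neighbours of the hair cortex, KRT86 and KRT83, stayed far below it, with mean levels under doxycycline of 0.206 and 0.0461 CPM per kb of exon in EW8 against 8.62 for KRT81, and of 0.391 and 0.434 against 24.9 in TC71. KRT86 was at 0.483, 0.810 and 0.183 CPM in EW8 and at 0.921, 0.908 and 0.978 CPM in TC71 with doxycycline, and KRT83 at 0.0358, 0.178 and 0.0457 CPM and at 0.655, 1.17 and 0.614 CPM, each from 0 counts under vehicle. The rise of KRT86 was at least 3.64-fold in EW8 and 8.04-fold in TC71, and that of KRT83 at least 6.98-fold in TC71. The EW8 call of KRT83 (adjusted p = 0.0155, edgeR) rests on 2, 9 and 2 counts and was lost without EW8 doxycycline replicate 2 (adjusted p = 0.0725).

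KRT81 and KRT86 are close copies, and this touches their counts. Of the 100-base stretches in KRT81 transcripts of GENCODE v44, 30.3% occur in another gene, and KRT86 shares 29.6% of its own. Reads that map equally well to several places were dropped, so both genes are undercounted and reads could have been placed between them. KRT80 and KRT83 share no such stretch with any gene.

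KRT7, the type II keratin of ducts and glands, separated the lines. Starting from 0 counts under vehicle in both, it reached 1.52, 1.09 and 1.53 CPM in EW8 and 0.145, 0.143 and 0.0455 CPM in TC71. The EW8 level was at least 10.2-fold higher than under vehicle (adjusted p = 9.57e-06, edgeR). In TC71 it was called as well (adjusted p = 0.00286, edgeR) on 6, 6 and 2 counts, no more than the floor, so no fold is given. Part of its exons, 314 of 4093 bases, lies opposite KRT7-AS and KRT87P, and reads there were dropped since strand was not used.

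KRT75, the keratin of the companion layer between hair and root sheath, answered in EW8 and was not seen in TC71. It lies further along the same cluster, at chr12:52424070-52434525. In EW8 it had 0 counts in the 3 vehicle libraries and was at 18.5, 21.4 and 18.2 CPM with doxycycline, at least 143-fold higher (adjusted p = 1.81e-10, edgeR). In TC71 it had 0 counts in all 6 libraries. With both vehicle groups at 0 the difference of the 2 responses has no finite estimate, so the doxycycline groups were compared directly, a contrast added after the data were seen. KRT75 was at least 133-fold lower in TC71 than in EW8 with doxycycline (adjusted p = 1.04e-10, edgeR). Its neighbours KRT6A, KRT6B, KRT6C and KRT5 stayed at or below 0.480 CPM, and 221 of its 2324 exon bases lie opposite an unnamed gene.

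KRT79, a keratin of the hair canal near the far end of the cluster (chr12:52821410-52834295), was at 0.788, 0.573 and 0.617 CPM in EW8 and at 0.557, 0.406 and 0.546 CPM in TC71 with doxycycline, from 0 counts in every vehicle library. The doxycycline levels were at least 4.87-fold and 4.32-fold higher, and the 2 lines did not differ in the test under doxycycline (log2 difference -0.39, SE 0.59, adjusted p = 0.594, edgeR). KRT78, its neighbour, had at most 20 counts and did not enter the test.

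**Figure D3:**
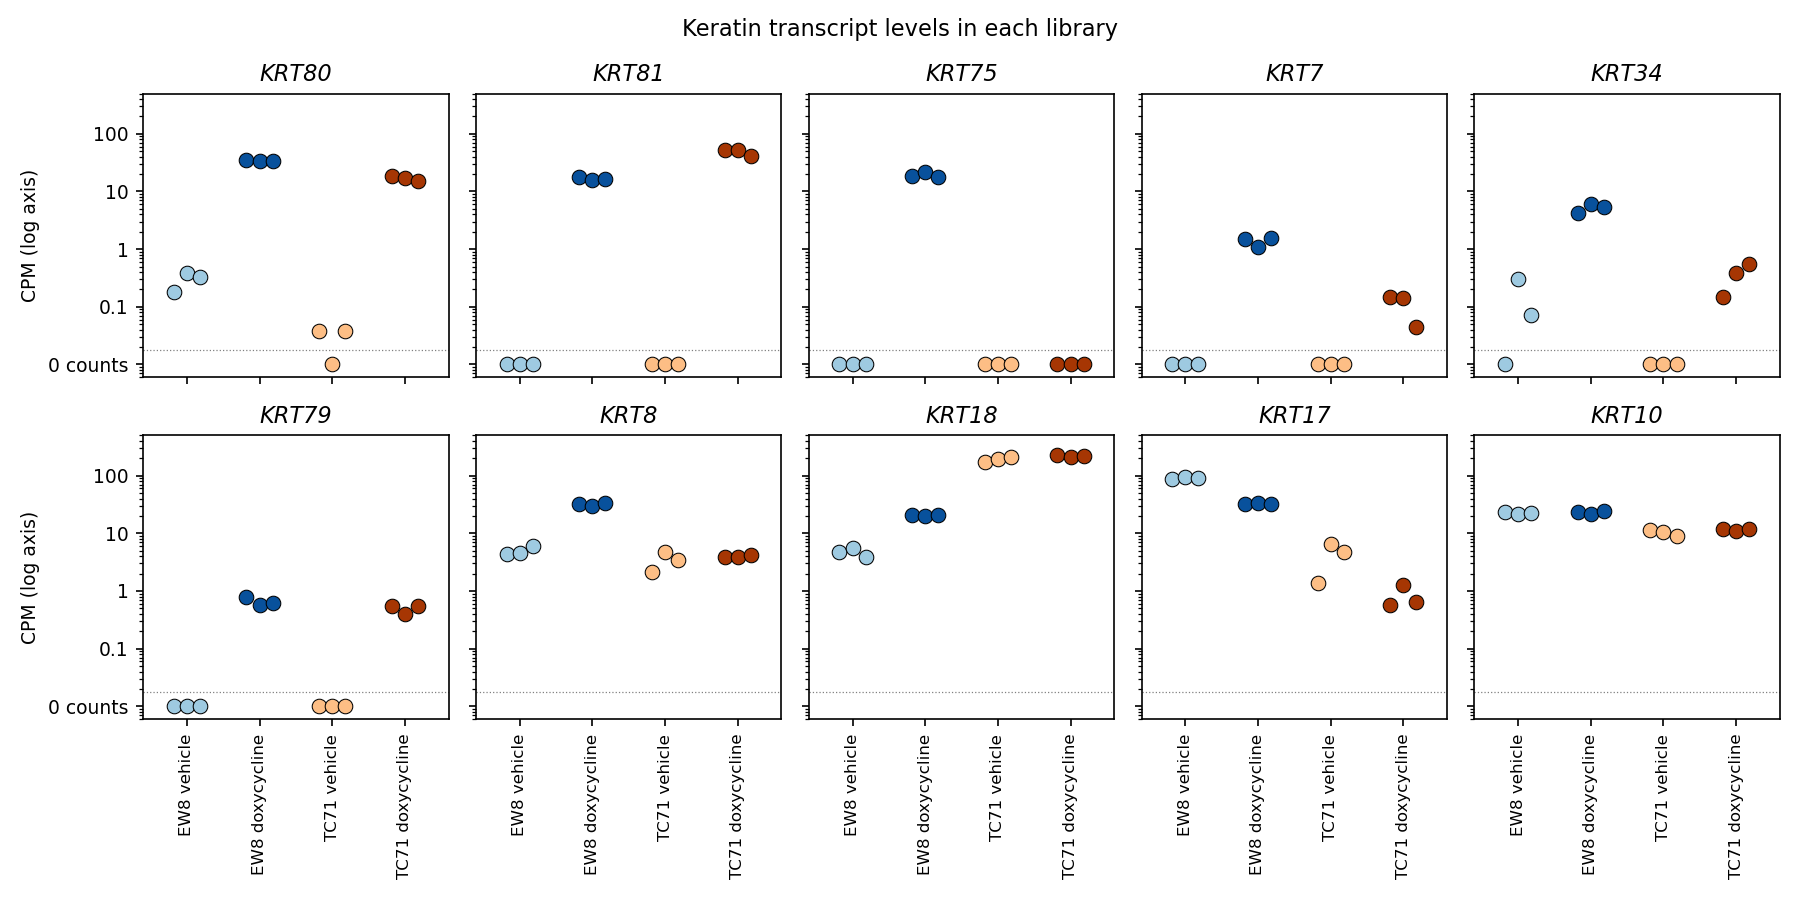
CPM of 10 keratins in each of the 12 libraries on a log axis, 3 points per group, with libraries of 0 counts on the lowest line. KRT80 and KRT81 leave the lowest part of the axis with doxycycline in both lines, KRT75 in EW8 alone, KRT8 and KRT18 are higher with doxycycline in EW8, and KRT17 is lower in both lines.

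The simple epithelial pair KRT8 and KRT18 rose in EW8 and not in TC71. KRT8 was at 4.38, 4.47 and 6.11 CPM in EW8 vehicle libraries and at 31.9, 29.8 and 33.7 CPM with doxycycline (log2 fold change 2.67, SE 0.20, adjusted p = 3.88e-09, edgeR). KRT18 went from 4.69, 5.49 and 3.88 CPM to 21.2, 20.3 and 20.6 CPM (log2 fold change 2.15, SE 0.10, adjusted p = 3.92e-12, edgeR). Neither pair of groups overlapped, and the mean rose 6.39-fold for KRT8 and 4.42-fold for KRT18.

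TC71 already held far more KRT18. It was at 174, 196 and 211 CPM under vehicle and at 226, 211 and 217 CPM with doxycycline (log2 fold change 0.17, SE 0.08, adjusted p = 0.0954, edgeR), and the groups overlapped. KRT8 was at 2.16, 4.78 and 3.40 CPM under vehicle and at 3.90, 3.90 and 4.28 CPM with doxycycline (log2 fold change 0.22, SE 0.21, adjusted p = 0.444, edgeR). Without TC71 vehicle replicate 1 the TC71 fold changes were 0.04 for KRT18 and -0.09 for KRT8 on the log2 scale, and neither was called. The response in TC71 minus that in EW8 was -2.45 for KRT8 on the log2 scale (SE 0.29, adjusted p = 6.01e-06, edgeR) and -1.98 for KRT18 (SE 0.13, adjusted p = 4.09e-09, edgeR). Of the 16 keratins tested, 7 had no finite estimate of this difference, among them KRT7, KRT75 and KRT81. KRT8 and KRT18 were the only 2 of the others with a response called lower in TC71, beside 1 called higher, KRT80. Over all genes tested 2.87% had a lower and 4.18% a higher response in TC71. For KRT80 the difference was 2.48 (SE 0.58, adjusted p = 0.00514, edgeR), and it rests on 4 counts in the TC71 vehicle libraries. Without TC71 vehicle replicate 2, which had none of them, it was 1.85 (adjusted p = 0.0288, edgeR).

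Between the 2 chains the lines differed too. Per kb of exon, KRT18 was 1.31 to 2.63 times as high as KRT8 in the 6 EW8 libraries and 87.5 to 172.5 times as high in the 6 TC71 libraries. With the length of the canonical transcript in place of all annotated exons the ratios were 0.771 to 1.55 and 51.7 to 102. Without TC71 vehicle replicate 1, which gave both TC71 upper ends, the TC71 ratios were 87.5 to 133 per kb of exon and 51.7 to 78.5 with canonical lengths. The 2 genes share 525 exon bases on opposite strands, 7.63% of KRT8 and 16.3% of KRT18, and reads there were assigned to neither.

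Among the type I keratins of chromosome 17, KRT34 had the largest log2 response in EW8. KRT34, a hair cortex keratin, was at 0, 0.305 and 0.0718 CPM in EW8 vehicle libraries and at 4.24, 6.11 and 5.44 CPM with doxycycline (log2 fold change 5.38, SE 0.63, adjusted p = 2.96e-06, edgeR). Without EW8 vehicle replicate 2, which held most of its vehicle counts, the log2 fold change was 6.97 (adjusted p = 2.40e-06, edgeR). In TC71 it went from 0 counts to 0.145, 0.382 and 0.546 CPM, at least 3.07-fold higher (adjusted p = 0.000411, edgeR). The doxycycline level was 14.7-fold lower in TC71 than in EW8 (adjusted p = 1.43e-05, edgeR). The other hair keratins of its cluster stayed at or below 0.330 CPM in every library, KRT31, KRT33A and KRT33B with at most 2 counts each.

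KRT15, a basal and hair bulge keratin, was called higher in both lines at very low levels. Its counts in EW8 were 2, 3 and 0 under vehicle and 16, 16 and 14 with doxycycline, a ratio of read pairs of 11.2 with a 95% counting interval of 2.76 to 97.7 (adjusted p = 0.0299, edgeR). In TC71 it had 0 counts under vehicle and 0.291, 0.382 and 0.0228 CPM with doxycycline, at least 1.99-fold higher (adjusted p = 0.00271, edgeR). The EW8 call was lost without any 1 of EW8 vehicle replicates 1 and 3 and the 3 EW8 doxycycline libraries (adjusted p from 0.0547 to 0.101).

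KRT17 was the only keratin to fall in both lines. KRT17 is a type I keratin of hair follicles and of wounded or inflamed epidermis. It was at 87.1, 93.8 and 89.3 CPM in EW8 vehicle libraries and at 32.8, 33.7 and 32.4 CPM with doxycycline (log2 fold change -1.45, SE 0.25, adjusted p = 0.000132, edgeR), a 2.73-fold lower mean. In TC71 it was at 1.38, 6.41 and 4.77 CPM under vehicle and at 0.582, 1.29 and 0.637 CPM with doxycycline (log2 fold change -2.34, SE 0.41, adjusted p = 0.000111, edgeR), a 5-fold lower mean. The lowest TC71 vehicle value came from replicate 1, without which the log2 fold change was -2.81 (adjusted p = 2.53e-12, edgeR). The 2 responses of KRT17 did not differ in the test with all libraries (difference -0.89, SE 0.50, adjusted p = 0.249, edgeR), and did so without TC71 vehicle replicate 1 (difference -1.41, adjusted p = 2.48e-05, edgeR).

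TP63, the master regulator of stratified epithelia, moved with KRT17. Its mean fell from 147.7 ± 2.55 to 71.3 ± 0.852 CPM (SD, n = 3) in EW8 and from 1.84 ± 1.01 to 0.392 ± 0.216 CPM (SD, n = 3) in TC71, and its part in the levels of KRT17 was not tested. The EW8 change of TP63 lay close to the fold limit (log2 fold change -1.05, SE 0.17, adjusted p = 5.49e-05, edgeR), and DESeq2 did not call it. KRT14, which belongs to the same basal programme, had 7, 11 and 13 counts in EW8 vehicle libraries and at most 3 in every other library, and did not enter the test.

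The type I keratins of the inner root sheath gave low counts. KRT25 was at 0.541, 1.22 and 0.754 CPM in EW8 vehicle libraries and at 0.286, 0.514 and 0.0457 CPM with doxycycline (log2 fold change -1.55, SE 0.70, adjusted p = 0.0867, edgeR). It was at 0.267, 0.354 and 0.427 CPM in TC71 vehicle libraries and at 0.0485, 0 and 0 CPM with doxycycline (adjusted p = 0.00250, edgeR), a ratio of read pairs of 22.2 with a counting interval of 3.68 to 906 that rests on 1 read pair. KRT27 was at 0.215 to 0.316 CPM in all 6 EW8 libraries (adjusted p = 0.981, edgeR). Its TC71 call (adjusted p = 0.0285, edgeR) came from 12 counts in doxycycline replicate 3 alone, with 0 counts in the other 5 libraries.

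KRT10, the main type I keratin above the basal layer, was present in both lines and was not called in either. It was at 21.7 to 24.3 CPM in the 6 EW8 libraries and at 8.99 to 12.04 CPM in the 6 TC71 libraries, with log2 fold changes of 0.02 (SE 0.10, adjusted p = 0.892, edgeR) and 0.19 (SE 0.11, adjusted p = 0.161, edgeR). KRT23 was at 0.0902 to 0.480 CPM in EW8, with a log2 change of 0.96 (SE 0.77, adjusted p = 0.353, edgeR) and had 0 counts in TC71. The other keratins above the floor somewhere, KRT6A, KRT13, KRT14, KRT16, KRT19, KRT28, KRT32, KRT38, KRT78 and KRT85, had too few reads for the test. KRT16, which usually accompanies KRT6A in activated epidermis, had the most counts of them, 38, 6 and 49 counts in EW8 doxycycline libraries.

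Under vehicle the 2 lines had different keratins. KRT18 was 41.3-fold higher in TC71 (log2 difference 5.38, SE 0.10, adjusted p = 2.04e-17, edgeR). KRT17 was 21.5-fold lower (log2 difference -4.41, SE 0.30, adjusted p = 3.62e-10, edgeR) and KRT10 was 2.22-fold lower (log2 difference -1.15, SE 0.10, adjusted p = 1.80e-08, edgeR). With single libraries left out, the log2 difference of KRT17 ranged from -4.87 to -3.95. In all, 1 keratin was called higher and 6 lower in TC71, the others being KRT80, KRT23, KRT27 and KRT34, where 11.6% of all genes tested were higher and 18.9% lower. As shares of all 55 keratins these are 1.82% and 10.9%, against 4.17% and 6.77% of all 58721 genes, tested or not. KRT34 rests on 14 and 4 counts in 2 EW8 libraries and was lost without EW8 vehicle replicate 2 (adjusted p = 0.0633). Under doxycycline, 3 keratins were called higher in TC71 (KRT18, KRT81 and KRT83) and 8 lower (KRT7, KRT8, KRT17, KRT23, KRT25, KRT34, KRT75 and KRT80), where 12.6% of all genes tested were higher and 18.4% lower. Out of all 55 keratins these are 5.45% and 14.5%, against 4.50% and 6.60% of all 58721 genes. KRT81 was 2.89-fold higher in TC71 and KRT80 2.04-fold lower. The comparisons between lines share libraries with the responses and are not independent of them.

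The order of levels changed with doxycycline. Between genes, levels were compared per kb of all annotated exons, and the order depends on that length. Canonical transcripts are much shorter for KRT8 (1784 against 6881 bases), KRT17 (1517 against 3130) and KRT18 (1413 against 3218). They are nearly the same for KRT10 (2143 against 2144) and KRT81 (1929 for both). The order with canonical lengths is not given here. In EW8 vehicle libraries KRT17 led with 28.8 ± 1.08 CPM per kb (SD, n = 3), followed by KRT10 with 10.6 ± 0.342 and KRT18 with 1.46 ± 0.251. In EW8 doxycycline libraries KRT10 at 10.8 ± 0.627 and KRT17 at 10.5 ± 0.218 CPM per kb lay within each other's spread, as did KRT81 at 8.62 ± 0.534 and KRT75 at 8.33 ± 0.767, and KRT75 and KRT80 at 7.87 ± 0.181. On this length the ranges of KRT81 (8.073 to 9.14) and KRT80 (7.705 to 8.065 CPM per kb) did not overlap. With canonical lengths this need not hold, as KRT80 has 3873 bases there in place of 4350. In TC71, KRT18 led under both treatments with 60.2 ± 5.79 and 67.8 ± 2.30 CPM per kb. KRT81 came next with doxycycline at 24.9 ± 3.12, ahead of KRT10 at 5.44 ± 0.212 and KRT80 at 3.86 ± 0.369 CPM per kb.

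Summed over each type, the 2 lines held type I keratin transcripts with hardly any type II under vehicle. The summed type I level was 40.9 to 43.4 CPM per kb in EW8 and 60.2 to 71.8 in TC71 vehicle libraries, while the summed type II level was 0.677 to 1.07 and 0.322 to 0.705 CPM per kb. With doxycycline the type II sum was 30.2 to 30.9 CPM per kb in EW8 and 26.4 to 32.6 in TC71. The type I sum was 31.4 to 32.5 CPM per kb in EW8, below all its vehicle libraries, and 71.7 to 76.2 in TC71. Type I over type II thus went from between 38.7 and 60.4 to between 1.02 and 1.07 in EW8, and from between 96.7 and 187 to between 2.22 and 2.80 in TC71. The ratio of 187 and the TC71 vehicle sums of 60.2 and 0.322 came from TC71 vehicle replicate 1, and the next highest ratio was 143. No test was run on these sums, which are dominated by the few genes above.

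The type II sum was made of different genes in the 2 lines. In EW8 doxycycline libraries KRT81 gave 26.5 to 29.6% of it, KRT75 25.8 to 30.2%, KRT80 25.3 to 26.1% and KRT8 14.2 to 16.2%. In TC71 doxycycline libraries KRT81 alone gave 80.8 to 82.3% and KRT80 12.1 to 13.1%. Without KRT8 and KRT18 the type I sum in TC71 was only 6.01 to 6.38 CPM per kb with doxycycline, below the type II sum of 25.8 to 32.0. With canonical transcript lengths the ratio of type I to type II went from between 20.2 and 29.02 to between 1.11 and 1.15 in EW8, and from between 55.0 and 106 to between 4.52 and 5.60 in TC71.

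**Figure D4:**
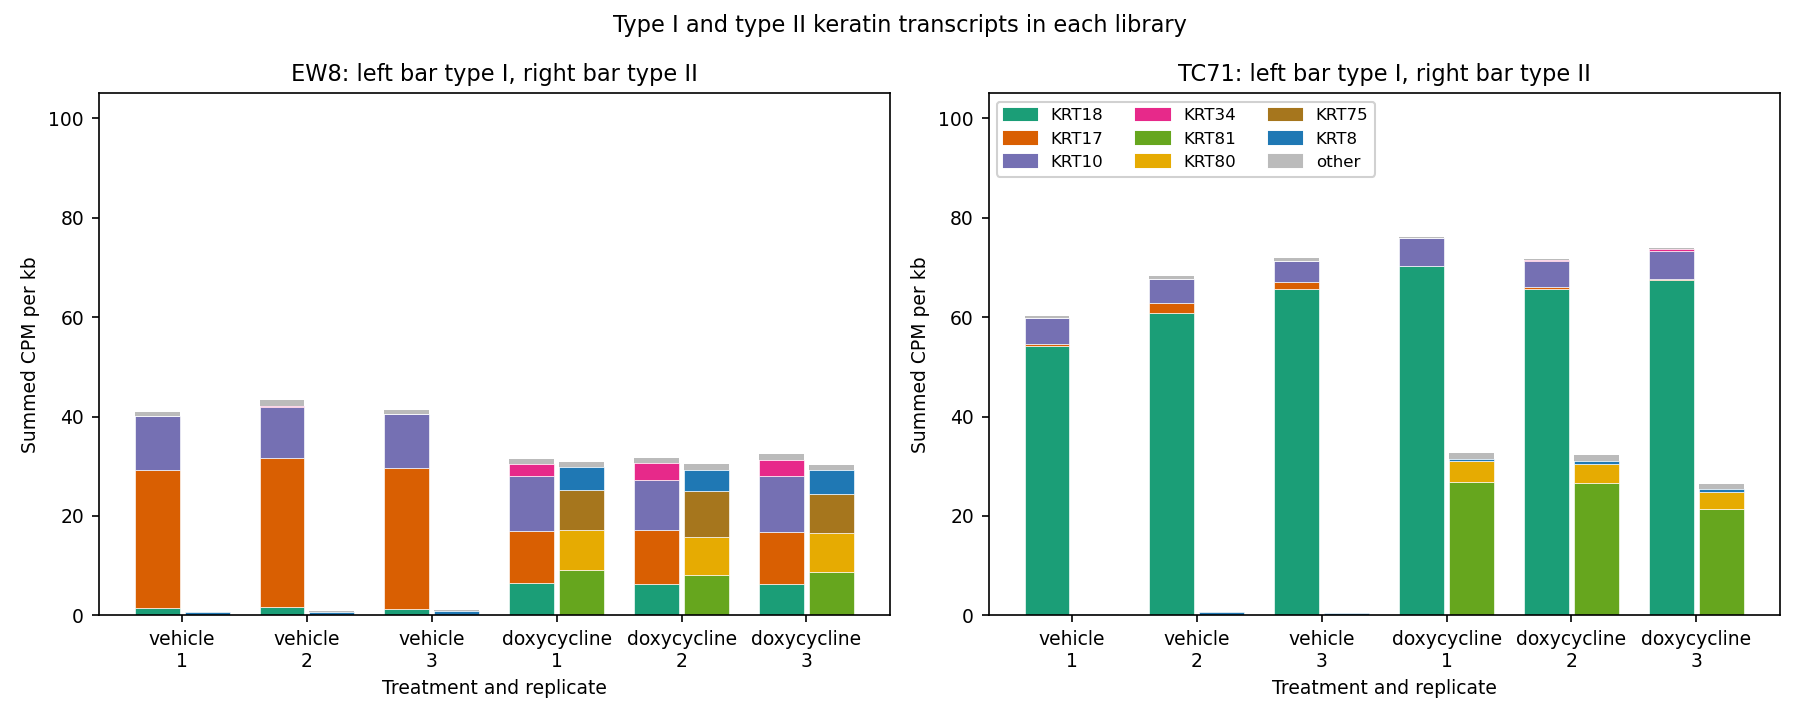
Summed level of type I (left bar) and type II (right bar) keratins in each library, in CPM per kb of exon, with EW8 on the left and TC71 on the right and the leading genes in colour. The type II bars are near 0 in all 6 vehicle libraries and between 26.4 and 32.6 CPM per kb in all 6 doxycycline libraries.

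Promoter sequences were available for 34 of the 55 keratins in the RefSeq table of build GRCh38.p14, which covers 250 bases before to 50 bases after each start, and those of KRT75, KRT34 and KRT79 are shown because these genes rose from 0 or near 0. Each is given 5′ to 3′ on the minus strand, where the gene lies, and capitals mark the letters ATAAA where they begin 29 to 31 bases before the start. Their positions are chr12:52434322-52434621, chr17:41382257-41382556 and chr12:52834262-52834561.
KRT75: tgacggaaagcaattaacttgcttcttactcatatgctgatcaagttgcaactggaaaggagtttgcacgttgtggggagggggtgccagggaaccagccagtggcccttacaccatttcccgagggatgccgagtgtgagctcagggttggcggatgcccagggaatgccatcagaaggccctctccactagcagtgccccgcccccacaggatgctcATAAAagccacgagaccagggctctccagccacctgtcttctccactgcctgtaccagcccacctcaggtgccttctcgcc
KRT34: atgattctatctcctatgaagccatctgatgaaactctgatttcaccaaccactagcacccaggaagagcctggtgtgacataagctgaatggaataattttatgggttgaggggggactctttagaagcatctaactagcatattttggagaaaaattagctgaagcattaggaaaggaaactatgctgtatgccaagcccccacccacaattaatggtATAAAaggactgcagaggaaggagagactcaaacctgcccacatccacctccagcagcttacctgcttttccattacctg
KRT79: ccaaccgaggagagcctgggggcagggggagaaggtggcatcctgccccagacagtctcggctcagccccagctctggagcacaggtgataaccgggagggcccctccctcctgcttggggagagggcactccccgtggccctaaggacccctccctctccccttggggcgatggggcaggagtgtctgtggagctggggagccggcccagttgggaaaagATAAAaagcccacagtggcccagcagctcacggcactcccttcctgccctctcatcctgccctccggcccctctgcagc

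The letters TGANTCA, the core to which AP-1 is known to bind, were in none of the 34 keratin windows on either strand, and in 9.37% of the windows of all 27305 genes of the table. TGACGTCA, a related site for AP-1 and CREB proteins, was in none of the 34 and in 2.25% of all. GGAAGGAA, a run of 2 of the GGAA repeats to which the Ewing sarcoma fusion EWS-FLI1 is known to bind, was in the window of 1 keratin, KRT85, and in 4.50% of all. The absence of these letters from a window of this size says nothing of sites elsewhere. ATAAA between 40 and 20 bases before the start, a position typical of a TATA element, was found in 25 of 34 keratin windows (73.5%) and in 5.53% of all genes. It was also found in keratins that had no count in any library, among them KRT24, KRT71 and KRT84. KRT7, KRT15, KRT17, KRT18, KRT80, KRT81, KRT83 and KRT86 had no entry in the table.

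Genes that anchor keratin filaments at junctions were each above 6 counts in at least 1 library of each line. Of 12 listed, all 12 were tested, 6 rose in EW8 and 7 in TC71, and none fell by edgeR or DESeq2, with 3 in EW8 and 1 in TC71 lower at an unadjusted p below 0.05. PLEC, which encodes the linker plectin, went from 258 ± 22.5 to 1019 ± 102 CPM (SD, n = 3) in EW8, a log2 change of 1.98 (adjusted p = 2.32e-12, edgeR) and from 140 ± 10.7 to 458 ± 51.2 CPM in TC71 (log2 fold change 1.71, adjusted p = 1.50e-11, edgeR). DST, which encodes dystonin of hemidesmosomes, rose by 1.71 and 1.44 on the log2 scale. The median log2 fold change over the 12 was 1.24 in EW8 and 1.57 in TC71, beside -0.03 and 0 over all genes tested. Of all genes tested, 11.4% rose and 3.38% fell in EW8, and 12.3% rose and 3.67% fell in TC71. The same medians and shares over all genes apply to the lists below.

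The cornified envelope genes, which seal the dead outer cells of the epidermis, were mostly silent. Of 28 listed, 10 were tested and 18 in each line were at or under the floor in both groups. In EW8, 5 rose and none fell by edgeR or DESeq2 (1 was lower at an unadjusted p below 0.05), with a median of 1.80 on the log2 scale, and in TC71, 2 rose and 1 fell, with a median of 0.86. TGM3, a transglutaminase of hair and epidermis, went from 0.125 ± 0.0490 to 27.0 ± 1.74 CPM (SD, n = 3) in EW8, a log2 change of 7.74 (adjusted p = 4.42e-15, edgeR), and in TC71 it reached 20.4 ± 0.119 CPM from 0.0344 ± 0.0324 CPM (adjusted p = 3.36e-15, edgeR). FLG also rose in EW8, at 0.265 CPM with doxycycline, ALOXE3 rose and ABCA12 fell in TC71.

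Of 26 epithelial regulators and surface proteins, 18 were tested, 8 rose and 2 fell in EW8, and 10 rose and 1 fell in TC71, with medians of 1.39 and 2.13 on the log2 scale. In this list as in the others, medians cover the tested genes alone. A gene that enters the test only through its doxycycline libraries has to rise, which lifts them. CLDN4, a tight junction protein, went from 0.880 ± 0.259 to 46.4 ± 5.95 CPM (SD, n = 3) in EW8 and from 0.255 ± 0.189 to 64.4 ± 9.68 CPM in TC71. SPINT1, a protease inhibitor of epithelial surfaces, rose by 1.79 and 3.76 on the log2 scale. Beside TP63, ZNF750 fell in EW8 (adjusted p = 0.0107, edgeR).

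Markers of keratinocytes and epithelial cells were checked as a list of 11, of which 6 were tested and 3 rose and 1 fell in each line. The summed level was 147 to 151 CPM in EW8 vehicle and 146 to 156 CPM in EW8 doxycycline libraries, most of it TP63 under vehicle, and 1.11 to 4.19 and 103 to 123 CPM in TC71. COL17A1, a hemidesmosome collagen, went from 0 counts to 32.0 ± 0.760 CPM (SD, n = 3) in EW8 and 36.5 ± 0.941 CPM in TC71. EPCAM went from 0.707 ± 0.481 to 11.9 ± 0.644 CPM in TC71, and was at 0.163 ± 0.0242 and 0.284 ± 0.0705 CPM in EW8. The desmosomal cadherins DSC3 and DSG3 had 0 counts in all 12 libraries, CDH1 (E-cadherin) was at or below 0.361 CPM throughout, and 2 of the 11 in EW8 and 6 of the 11 in TC71 were at or under the floor with doxycycline.

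Intermediate filaments other than keratins were also tested, 11 of 12 listed. In EW8, 6 rose and 1 fell, and in TC71, 7 rose and 1 fell, with medians of 1.26 and 1.76 on the log2 scale. VIM (vimentin), the filament of mesenchymal cells, went from 122 ± 4.22 to 1081 ± 13.7 CPM (SD, n = 3) in EW8, a log2 change of 3.14 (adjusted p = 1.74e-18, edgeR) and from 528.5 ± 17.1 to 1679 ± 58.8 CPM in TC71 (log2 fold change 1.67, adjusted p = 2.72e-15, edgeR). NEFL, a neurofilament, rose by 1.90 and 2.72 on the log2 scale. PRPH (peripherin), of peripheral neurons, fell, with log2 fold changes of -1.86 in EW8 and -2.86 in TC71.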

How the data were processed

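RNA was sequenced from 12 libraries, 3 in each of 4 groups (EW8 and TC71, vehicle or doxycycline), by poly(A) selection and a stranded paired-end kit. The authors aligned reads to hg38 with STAR and deposited raw counts per gene from featureCounts 2.0.1 over GENCODE v29 exons. The command in the file header names no option for pairs, strand, multi-mapped or overlapping reads, so mates were counted singly, strand was not used, and reads of several places or genes were dropped. Symbols came from the GENCODE v44 reference and gene_names table and matched 58252 of 58721 identifiers (99.2%).

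The members, classes and gene lists were chosen with earlier results of these data known. The deposited counts were tested with edgeR 4.0.16 (R 4.3.3): TMM scaling, filterByExpr (21013 genes kept), glmQLFit over all 12 libraries with 4 groups, and Benjamini-Hochberg adjustment over all genes tested. A gene was called where the adjusted p lay below 0.05 and the log2 change exceeded 1 in size. Contrasts were the response in each line, their difference, and TC71 against EW8 under vehicle. The same contrast under doxycycline, the canonical lengths and the ATAAA search were added after the data were seen. CPM used TMM-scaled library sizes, and CPM per kb the deposited exon length. The floor is 6 counts per library (3 read pairs), and folds against groups of 0 counts use the highest floor of those libraries. Ratios of read pairs carry exact Clopper-Pearson 95% intervals. Intervals and floors cover counting error only. On simulated counts the edgeR step was checked before use.

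Named were all tested members, those called with every library, and from each list the called genes with the highest mean CPM, at most 2 per line and direction. Some further marker genes were named as well. A planned comparison of protein sequences was not made, and shared 100-base stretches of transcripts took its place. The alternatives were other scaling (median-ratio, upper-quartile, library size alone), DESeq2 1.42.0, other filters, counts divided by 2, fits on 1 line, a replicate block, each library left out, and other fold limits.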

Additional observations from a re-analysis of the deposited data

Results flagged for a closer look

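For 3 keratins the response to doxycycline differed between the 2 lines by the test of the difference itself (edgeR, TC71 minus EW8 on the log2 scale, 3 libraries in each of 4 groups). For KRT80 the difference was 2.48 (adjusted p = 0.00514), with 44 counts over the 3 EW8 vehicle libraries and 4 over those of TC71. The doxycycline level itself was 2.04-fold lower in TC71, so the larger response goes with a lower starting level. For KRT8 the difference was -2.45 (adjusted p = 6.01e-06), and for KRT18 it was -1.98 (adjusted p = 4.09e-09). In the direct comparison under doxycycline KRT8 was 7.91-fold lower and KRT18 10.5-fold higher in TC71 than in EW8.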

How the results depend on the processing

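No keratin changed its direction while called under any alternative, and 63 of 73 results for single keratins kept their side of the threshold under every alternative run. With no filter on low counts, 2 keratins in place of 1 had a response called higher in TC71, the second being KRT27, 14 in place of 11 were higher in EW8, 10 in place of 9 higher in TC71, 9 in place of 6 lower in TC71 under vehicle, and 9 in place of 8 lower under doxycycline. A minimum of 10 counts in every library leaves out the keratins silent under vehicle by construction: it left 2 higher in EW8, 0 higher and 1 lower in TC71, 0 with a higher response in TC71, 2 lower in TC71 under vehicle, and 1 higher and 3 lower in TC71 under doxycycline. With counts divided by 2, or with only the libraries of the line, 2 keratins in place of 1 were lower in EW8, KRT25 being the second (adjusted p = 0.0406 and 0.0344), and leaving out single libraries gave 1 to 2 (2 without EW8 doxycycline replicate 2). DESeq2 gave 3 keratins in place of 2 with a lower response in TC71, and 9 in place of 8 lower in TC71 under doxycycline. The third with a lower response was KRT75. Its difference has no finite estimate, as stated above, so that call carries no weight. With an absolute log2 fold change over 2, 0 were lower in EW8 and 1 had a lower response in TC71. The replicate numbers did not pair the libraries (correlations of same-numbered libraries from -0.028 to 0.018 over 18 pairs), and with a replicate block KRT27 in TC71 lost its call (log2 fold change 4.87, adjusted p = 0.0614). KRT27 also lost it with only the TC71 libraries (0.112), without TC71 vehicle replicate 2 (0.0656) or 3 (0.0564), and without doxycycline replicate 3. KRT10 passed the fold limit between the lines under doxycycline in 11 of 20 alternatives (log2 difference -1.07 to -0.95, main value -0.99), and KRT27 did without TC71 doxycycline replicate 3. KRT15 under vehicle was called lower in TC71 without EW8 vehicle replicate 3 (adjusted p = 0.0404) or TC71 doxycycline replicate 3 (0.0492). Upper-quartile scaling moved the median TC71 response of all genes by -0.12 and changed no keratin call but that of KRT10 between the lines. The window of 250 bases alone left 0% of keratin promoters with GGAAGGAA, in place of 2.94%. At this depth a keratin with 0 counts may still hold up to 3 read pairs per library, between 0.0966 and 0.145 CPM.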

Other observations

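The keratin-associated proteins bind hair keratins in the hair shaft. Of 94 of their genes, 87 in EW8 and 92 in TC71 were at or under 6 counts in every library, 1 was tested, and none was called in either line by edgeR or DESeq2, with 0 also at an unadjusted p below 0.05. Keratin pseudogenes gave few reads, 334 to 744 summed counts per library over 150 of them. Of these 150, 21 were tested, with 4 higher and 2 lower in EW8 and 1 higher and 3 lower in TC71. KRT87P, which lies between KRT7 and KRT81, went from 0 counts under vehicle to 1.74 ± 0.129 CPM (SD, n = 3) in TC71, at least 15-fold higher (adjusted p = 1.62e-06, edgeR). KRT87P shares 100-base stretches with KRT81 and KRT86, and whether reads of those genes were placed on it was not tested. In EW8 it was called higher as well (adjusted p = 0.0041, edgeR), at or under 6 counts in every library, so no fold is given. KRT17P2 fell in both lines, as KRT17 did (log2 fold change -3.25 in EW8, adjusted p = 0.00105, edgeR).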
